A study of Mus musculus with 56 samples.

Results

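Hox genes were followed through ribosome-bound RNA of motor neurons and whole spinal cord RNA of adult mice, as all genes whose mouse symbol is Hoxa, Hoxb, Hoxc or Hoxd followed by a number. These were 39 of the 43629 genes in the count files, namely 11 of cluster A, 10 of cluster B, 9 of cluster C and 9 of cluster D, and the rule reads symbols and no measured value. The study used translating ribosome affinity purification (TRAP), in which EGFP-tagged ribosomes of Chat-expressing neurons are pulled down from a spinal cord lysate (MN-TRAP, 25 libraries), and sequenced lysate as input (spinal cord, SC, 31 libraries). Chat encodes choline acetyltransferase, so the tag marks every cholinergic neuron of the cord and not motor neurons alone. The libraries came from 3 genotypes at 9 and 14 weeks of age, and the labels give the tissue as cervical spinal cord, while the methods of the study speak of spinal cords without naming a segment for TRAP.

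All mice carried the Chat bacTRAP transgene (line DW167). Chat bacTRAP mice without a further transgene were the first control, with 6 SC and 4 MN-TRAP libraries at 9 weeks and 5 SC and 4 MN-TRAP libraries at 14 weeks. The hTDP-43 WT mice also carried a human wild-type TDP-43 transgene (TDP-43WT line 3cPtrc/J) and were the second control, with 6 SC and 3 MN-TRAP libraries at 9 weeks and 5 of each at 14 weeks. The hTDP-43 A315T mice carried human TDP-43 with the A315T mutation of amyotrophic lateral sclerosis (TDP-43A315T line 95Balo/J), with 5 of each at 9 weeks and 4 of each at 14 weeks. Both TDP-43 transgenes are driven by the prion promoter, which is active in many cell types, and the mice were described as female. MN-TRAP and SC libraries can share animals, since the input was a portion of the TRAP lysate, which the labels do not settle, and libraries were treated as independent. Where libraries of 1 group share a source, the p-values measure the spread between libraries.

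Hox genes encode homeodomain transcription factors that lie in 4 clusters in mammals, and genes of the same number in different clusters are paralogs descended from 1 ancestral gene. In the embryo they are switched on in the order of their position, low numbers early and toward the hindbrain and high numbers late and toward the tail. In the developing cord, paralogs 4 to 8 are known for brachial and cervical levels, paralog 9 for thoracic levels, paralogs 10 and 11 for lumbar levels and paralogs 12 and 13 for the sacral and caudal end, and their products, with Pbx and Meis cofactors, set the columns and pools of motor neurons. Cluster A lay at chr6:52155590-52260880 on the minus strand, cluster B at chr11:96194316-96368256, cluster C at chr15:102921103-103036852 and cluster D at chr2:74668310-74765142, the last 3 on the plus strand of GRCm38.

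Small RNAs of the clusters are shown first, because 1 of them is complementary over nearly its whole length to the most abundant Hox RNA of the cord. The clusters hold miR-196 genes next to the paralog 9 genes, and miR-196 is known to direct cleavage of Hoxb8 RNA in mouse embryos. The mature sequences from RefSeq (GRCm38.p6) are printed 5′ to 3′ with the seed, bases 2 to 8, in capitals, and both forms share that seed. Mir196a-1 lies at chr11:96265187-96265208 in cluster B and Mir196a-2 at chr15:102973365-102973386 in cluster C, both on the plus strand, and Mir196b at chr6:52230129-52230150 on the minus strand in cluster A. The Hoxb8 site lies in the 3′ UTR at chr11:96284888-96284909 on the plus strand of GRCm38 (GENCODE transcript). Capitals there mark letters complementary (A with T or U, G with C) to miR-196a-5p. The small g faces a U within the seed, and a G-U pair is not counted.
mmu-miR-196a-5p: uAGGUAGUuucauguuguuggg
mmu-miR-196b-5p: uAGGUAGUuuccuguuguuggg
Hoxb8 site: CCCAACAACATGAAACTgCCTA
Of the 22 letters of the Hoxb8 site 21 are complementary in this way, against 15 in the next best Hox transcripts. This is a match of letters and not a measurement of binding.

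The promoters of Hoxc4 and Hoxb8, 250 bases before to 50 after the start in RefSeq (GRCm38.p6), are shown as 1 gene of cluster C and 1 of cluster B whose RNA differed between the fractions in opposite directions. Capitals mark AGGTCA, the half-site of retinoic acid receptors, which read retinoic acid in Hox induction, and TATAAA, the TATA box, each on either strand. Hoxc4 is at chr15:103034145-103034444 and Hoxb8 at chr11:96281655-96281954, both on the plus strand.
Hoxc4 promoter: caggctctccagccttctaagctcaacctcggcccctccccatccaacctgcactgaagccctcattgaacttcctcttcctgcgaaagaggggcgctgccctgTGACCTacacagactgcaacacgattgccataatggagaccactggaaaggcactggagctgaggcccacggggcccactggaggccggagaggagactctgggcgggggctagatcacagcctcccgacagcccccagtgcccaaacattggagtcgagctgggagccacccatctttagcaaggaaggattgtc
Hoxb8 promoter: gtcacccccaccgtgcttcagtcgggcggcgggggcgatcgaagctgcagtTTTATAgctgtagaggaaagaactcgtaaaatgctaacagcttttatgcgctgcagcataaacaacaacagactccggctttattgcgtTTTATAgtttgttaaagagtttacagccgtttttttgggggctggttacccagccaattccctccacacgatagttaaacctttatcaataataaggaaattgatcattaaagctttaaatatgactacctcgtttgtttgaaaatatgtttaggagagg
The RefSeq table matched 22 of the 39 symbols with 24 promoters. AGGTCA occurred in 7 of these 24 promoters (29.2%) against 16.3% of all 32851 promoters of that length, TATAAA in 4 (16.7%) against 13.62%, and TGATTNAT, a motif of Hox and Pbx proteins, in 2 (8.33%) against 3.22%, with both strands searched and no overlap between the 3 motifs counted. Their median GC content was 57.6% against 52.7%. These shares are descriptions of letters and no test was made.

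The number of reads differed widely between libraries. The SC libraries held between 17.49 and 86.65 mega-counts (M, median 40.38) and the MN-TRAP libraries between 0.472 and 255.8M (median 19.55), and 4 MN-TRAP libraries had under 5M counts. The Hox genes together took 1416 to 1918 CPM (counts scaled to a common library total) in SC (median 1625) and 867 to 1338 in MN-TRAP (median 1029), and no MN-TRAP library reached the lowest SC library. The summed CPM of 8 motor neuron markers was 439 to 703 in SC and 2129 to 6489 in MN-TRAP, that of 10 oligodendrocyte markers 19390 to 30630 against 1491 to 21460, that of 8 astrocyte markers 3613 to 5348 against 734 to 2425, and that of 10 interneuron markers 995 to 1628 against 146 to 748. All 8 motor neuron markers were higher in MN-TRAP and all oligodendrocyte, astrocyte, microglial, endothelial, Schwann cell and interneuron markers lower, while 2 of 8 sensory ganglion markers were higher and 3 lower, and 5 of 7 muscle markers were lower (edgeR quasi-likelihood test, adjusted p below 0.05). Of the MN-TRAP libraries 3, hTDP-43 WT replicate 2 at 14 weeks and Chat bacTRAP replicate 1 at 14 weeks and replicate 2 at 9 weeks, held 18870 to 21460 CPM of oligodendrocyte markers. The MN-TRAP library Chat bacTRAP replicate 4 at 14 weeks held Y-linked reads although the mice were described as female.

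Hox RNA of the adult cord was dominated by the middle paralogs. Levels were compared between genes as normalized counts (counts divided by the size factor the authors gave each library) per kilobase (kb) of exons. In SC the highest median levels were those of Hoxb8 at 4397 per kb, Hoxb9 at 1470, Hoxb6 at 1234, Hoxc8 at 1150 and Hoxa5 at 1024. In MN-TRAP the order was Hoxc8 at 1638 per kb, Hoxb8 at 1096, Hoxc10 at 992, Hoxb5 at 788 and Hoxa7 at 754. Hoxb8, which in mice is known for sensory circuits of the dorsal horn, was thus first in SC by a range, 3108 to 6164 per kb, that did not overlap that of Hoxb9, 1065 to 1759. In MN-TRAP Hoxc8, which in the embryo acts in brachial motor pools, ranged from 1023 to 4034 per kb and overlapped Hoxb8 at 506 to 3192 and Hoxc10 at 606 to 1403, so these neighbours were not separated by their spread.

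At both ends of the clusters the levels fell off. Hoxb1, a gene of hindbrain patterning, had a median level in SC of 0.342 per kb and its cluster D paralog Hoxd1 one of 53.8. Among paralog 13 genes, which act in the caudal body and the urogenital tract, the SC medians were 3.78 per kb for Hoxa13, 16.8 for Hoxb13, 20.1 for Hoxc13 and 3.12 for Hoxd13. Hoxd12, another gene of the caudal end, was at 0 in 18 of 31 SC and 22 of 25 MN-TRAP libraries, and Hoxb1 was at 0 in 10 SC and 24 MN-TRAP libraries. These were the 2 members that did not pass edgeR's filter on low counts, so 37 were tested.

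**Figure D1:**
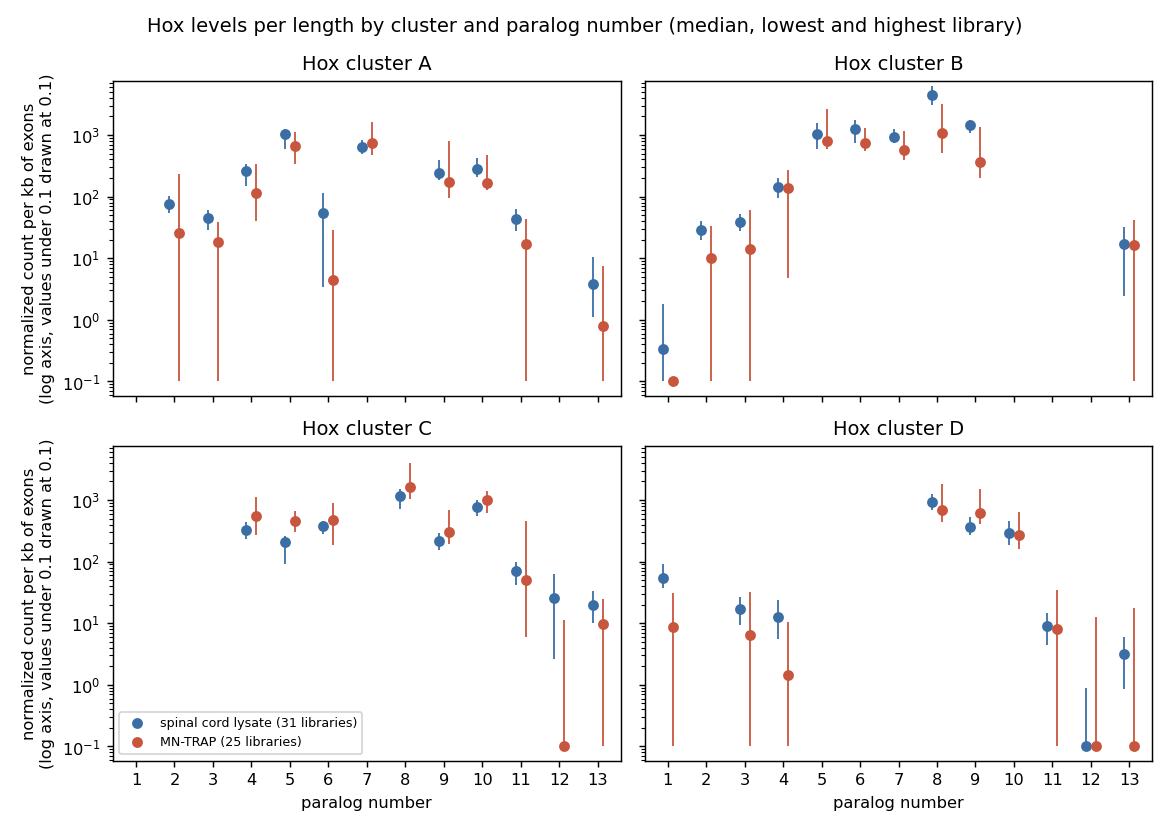
Level of Hox genes per kb of exons against its paralog number, in 1 panel per cluster, on a log axis with values under 0.1 drawn at 0.1. Points are medians and lines run from the lowest to the highest of 31 spinal cord (blue) and 25 MN-TRAP (red) libraries. The highest median of each cluster lies at paralogs 5 to 8, Hoxb8 in spinal cord is highest at 4397 per kb, and MN-TRAP points lie above spinal cord points for Hoxc4 to Hoxc10.

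The cord level of the tissue is addressed by the paralogs found in it. Paralogs 4 and 5 took a median of 16.5% of the Hox counts of an SC library (11.1 to 22.6%) and 23.6% of an MN-TRAP library (15.2 to 29.3%). Paralogs 6 to 8 took 57.2% (55.3 to 62.1%) in SC and 51.4% (44.5 to 58.8%) in MN-TRAP, and paralog 9 took 15.2% (13.1 to 19.6%) and 13.63% (10.4 to 21.98%). Paralogs 10 and 11 took 7.43% (6.06 to 10.6%) in SC and 10.2% (8.05 to 12.5%) in MN-TRAP, while paralogs 12 and 13 took 0.312% (0.127 to 0.516%) and 0.277% (0 to 0.463%) and paralogs 1 to 3 took 2.07% (1.58 to 2.95%) and 1.15% (0.355 to 1.80%). Without the 16 members whose exons overlap another counted gene, the medians in SC and MN-TRAP were 0.320% and 0.0855% for paralogs 1 to 3, 9.69% and 15.6% for paralogs 4 and 5, and 3.26% and 3.51% for paralogs 10 and 11. RNA of paralogs known for lumbar levels was thus present in every library labelled cervical. Whether it was made at cervical level or came from other segments was not tested. A share can also rise because other members fall. By the tests of single genes below, 2 of 7 genes of paralogs 4 and 5 were higher in MN-TRAP and 3 lower (median log2 difference -0.16). Of paralogs 10 and 11, 1 of 6 was higher and 2 lower (median -0.07).

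Hoxc10, known for lumbar motor columns, had 1061, 1445 and 1879 normalized counts in the lowest, median and highest SC library and 1156, 1894 and 2678 in MN-TRAP, with at least 39 raw counts in each library. For Hoxa10, its cluster A paralog, these were 682, 931 and 1378 in SC and 412, 548 and 1563 in MN-TRAP. Hoxd10, which acts with Hoxc10 in the lumbar cord, was at 343, 530 and 830 in SC and at 292, 484 and 1161 in MN-TRAP. All 3 paralog 10 genes were found in each library, and their ranges in the fractions overlapped. Paralog 11 genes, known for lumbar and sacral levels and for the kidney and forearm, were lower, with SC ranges of 62.7 to 144 normalized counts for Hoxa11, 84.6 to 198 for Hoxc11 and 19.0 to 62.7 for Hoxd11. In MN-TRAP the ranges were 0 to 98.9 for Hoxa11, 12.04 to 911 for Hoxc11 and 0 to 148 for Hoxd11. The highest Hoxc11 value belonged to hTDP-43 WT replicate 3 at 14 weeks. Without the 16 members whose exons overlap another counted gene, the median share of paralogs 10 and 11 over all 56 libraries was 3.32%, against 8.68%, and only Hoxa10 and Hoxc11 of these paralogs then remained.

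Among the paralogs 12 and 13, the tail end of the clusters, Hoxb13 was at 5.43 to 70.1 normalized counts in SC (median 37.1) and at 0 to 92.5 in MN-TRAP (median 36.1). Hoxc13 was at 24.99 to 81.5 (median 49.6) and 0 to 61.2 (median 23.9), and Hoxd13 at 2.14 to 15.1 (median 7.74) and 0 to 44.3 (median 0). These genes were counted in all 31 SC libraries and were at 0 in 2, 5 and 13 of the 25 MN-TRAP libraries respectively. In the shallowest library, of 472447 counts, 0 counts allow a level of up to 3 counts, so a 0 there does not show absence.

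SC libraries differed from each other in their shares of anterior and posterior paralogs. The 2 extreme libraries belonged to the same group, Chat bacTRAP at 14 weeks. In replicate 3 paralogs 4 and 5 took 22.6% of Hox counts (95% Clopper-Pearson interval 22.3 to 22.9%) and paralogs 10 and 11 took 6.06% (5.89 to 6.24%). In replicate 4 these were 11.1% (10.8 to 11.3%) and 10.6% (10.3 to 10.8%). The intervals cover counting error only, and the libraries differed by far more than it.

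**Figure D2:**
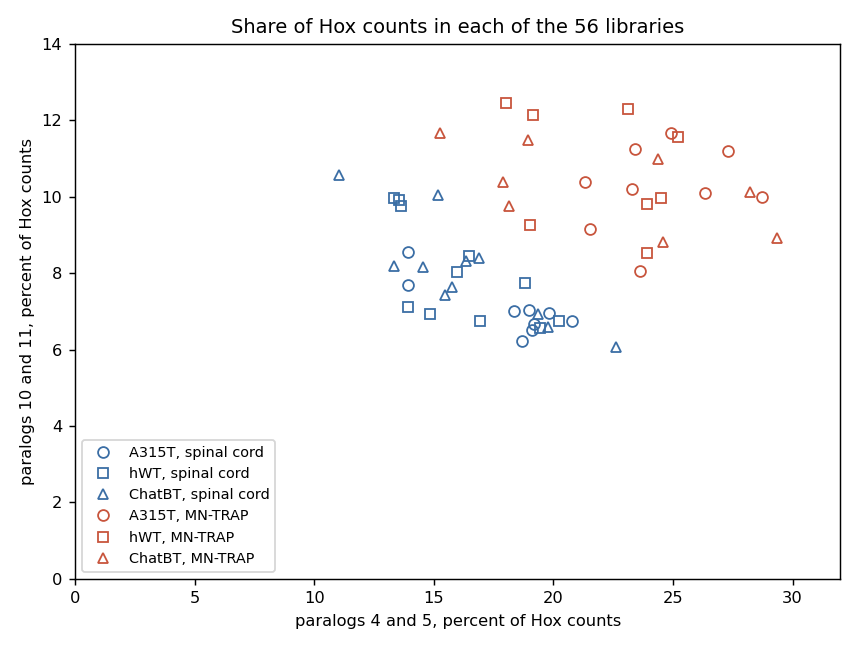
Share of Hox counts held by paralogs 10 and 11 (vertical axis, percent) against that of paralogs 4 and 5 (horizontal axis, percent), 1 point per library, blue for spinal cord and red for MN-TRAP, with the genotypes hTDP-43 A315T (A315T), hTDP-43 WT (hWT) and Chat bacTRAP (ChatBT) by shape. Spinal cord points run from 22.6 and 6.06% to 11.1 and 10.6%, and MN-TRAP points lie above and to the right of most of them. A larger share does not by itself mean a higher level of these genes.

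Pairs of 1 anterior and 1 posterior gene were then correlated. The 3 pairs were chosen after the shares of the same libraries had been seen, so the correlations restate that observation gene by gene and are no independent evidence of it. Over the 31 SC libraries, on log2(normalized count + 1), Hoxa5 and Hoxa10 had a Pearson r of -0.535 (permutation p = 0.00201, adjusted 0.0121) and a Spearman rho of -0.438 (permutation p = 0.0148, adjusted 0.0445). For Hoxb5 and Hoxd10 r was -0.484 (permutation p = 0.00588, adjusted 0.0176) and rho -0.463 (permutation p = 0.00974, adjusted 0.0445). For Hoxc4 and Hoxc10 r was -0.263 (permutation p = 0.153, adjusted 0.229) and rho -0.207 (permutation p = 0.263, adjusted 0.315). Without the 2 libraries farthest from the median of the first gene, r was -0.426, -0.341 and -0.141, and on deviations from the group means it was -0.536, -0.516 and -0.323.

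In the 25 MN-TRAP libraries r was 0.359 for Hoxa5 and Hoxa10 (permutation p = 0.078, adjusted 0.156), 0.265 for Hoxc4 and Hoxc10 (permutation p = 0.197, adjusted 0.237) and -0.0569 for Hoxb5 and Hoxd10 (permutation p = 0.78, adjusted 0.78). The rho values were 0.374 (permutation p = 0.0674, adjusted 0.135), 0.316 (permutation p = 0.122, adjusted 0.183) and 0.0208 (permutation p = 0.922, adjusted 0.922), and r without the 2 farthest libraries was 0.414, 0.126 and -0.158 and within groups 0.283, 0.358 and -0.164. The p-values were adjusted over the 6 correlations, and whether SC and MN-TRAP differ in r was not tested.

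Hox RNA of MN-TRAP differed from that of SC by cluster. Over the 6 genotype and age groups, 8 of the 37 tested Hox genes were higher in MN-TRAP and 21 lower at an adjusted p below 0.05 (edgeR quasi-likelihood test, Benjamini-Hochberg over 18838 genes). The shares over all genes tested were 31.6% higher and 43.8% lower. With a change of at least 2-fold required as well, 1 Hox gene was higher and 14 lower, against 10.4% and 26.1% of all genes. The median log2 difference was -0.42 over the Hox genes and -0.17 over all genes. Among the higher genes were 6 of the 9 of cluster C, from Hoxc4 to Hoxc10, with Hoxa7 and Hoxd9, and no gene of cluster B was among them. Lower counts in MN-TRAP of a gene used by several cell types can come from fewer cells of a type or from less RNA per cell, and the 2 cannot be told apart here.

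By cluster, 1 gene of cluster A was higher (Hoxa7) and 9 of 11 lower, 6 of 9 in cluster B were lower and none higher, 6 of 9 in cluster C were higher and 2 lower (Hoxc12 and Hoxc13), and 1 of 8 in cluster D was higher (Hoxd9) and 4 lower. By paralog number, 6 of 7 tested genes of paralogs 1 to 3 were lower, 2 of 7 of paralogs 4 and 5 were higher and 3 lower, 3 of 8 of paralogs 6 to 8 were higher and 5 lower, 2 of 4 paralog 9 genes were higher and 2 lower, 1 of 6 of paralogs 10 and 11 was higher and 2 lower, and 3 of 5 of paralogs 12 and 13 were lower. The median log2 difference was -0.95 in cluster A, -0.53 in B, 0.51 in C and -0.62 in D. Within cluster C the direction changed between Hoxc10 and Hoxc12.

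**Figure D3:**
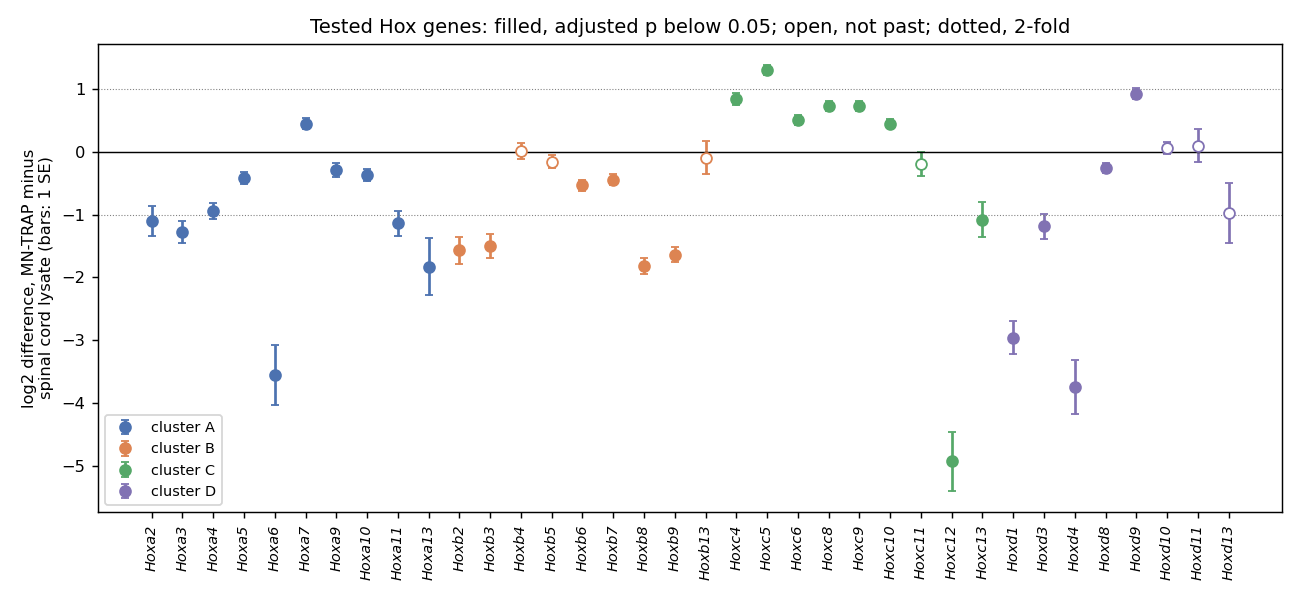
Log2 difference of MN-TRAP minus spinal cord for the tested Hox genes named in the text, in order of cluster and paralog number, with bars of 1 standard error (SE) from the edgeR fit of all 56 libraries. Filled points passed an adjusted p of 0.05, open points did not, and dotted lines mark 2-fold. Cluster C points from Hoxc4 to Hoxc10 lie above 0, from 0.44 to 1.29, and cluster B points lie at 0.01 or below.

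Hoxc5, a brachial gene of the embryonic cord, had 278, 648 and 799 normalized counts in the lowest, median and highest SC library and 932, 1412 and 2063 in MN-TRAP. Each of the 25 MN-TRAP libraries lay above each SC library, as for 2.53% of all genes tested. The log2 difference was 1.29 (SE 0.08, adjusted p = 4.68e-21). Hoxc4, its neighbour and like it a gene of cervical levels, was at 595, 852 and 1117 in SC and at 688, 1420 and 2837 in MN-TRAP. Of the MN-TRAP libraries 21 lay above the highest SC library, and the log2 difference was 0.83 (SE 0.10, adjusted p = 6.46e-11).

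Hoxc8, a gene of brachial motor pools, was at 2027, 3258 and 4257 normalized counts in SC and at 2896, 4640 and 11420 in MN-TRAP, with 18 MN-TRAP libraries above all SC libraries. Its log2 difference was 0.73 (SE 0.08, adjusted p = 2.06e-11). Hoxc9, which sets thoracic motor columns by repressing limb-level Hox genes, was at 372, 525 and 699 in SC and at 464, 733 and 1676 in MN-TRAP, again with 18 libraries above all SC libraries and a log2 difference of 0.72 (SE 0.08, adjusted p = 1.34e-11). The brachial gene Hoxc8, the thoracic gene Hoxc9 and the lumbar gene Hoxc10 were thus all higher in MN-TRAP, the last with 13 libraries above all SC libraries and a log2 difference of 0.44 (SE 0.07, adjusted p = 1.03e-07).

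Hoxc6, which marks brachial limb-innervating motor neurons in the embryo, was at 664, 902 and 1099 normalized counts in SC and at 442, 1157 and 2154 in MN-TRAP. Of the MN-TRAP libraries 16 lay above and 1 below all SC libraries, with a log2 difference of 0.51 (SE 0.08, adjusted p = 7.99e-08). Outside cluster C, Hoxd9, the cluster D paralog of Hoxc9, was at 581, 775 and 1144 in SC and at 887, 1337 and 3184 in MN-TRAP, with 20 libraries above all SC libraries and a log2 difference of 0.92 (SE 0.09, adjusted p = 2.43e-13). Hoxa7, a gene of axial patterning at thoracic levels, was at 1396, 1813 and 2374 in SC and at 1339, 2170 and 4663 in MN-TRAP. Its fractions overlapped most among the genes that were higher, with 8 libraries above all SC libraries, its log2 difference was 0.44 (SE 0.09, adjusted p = 9.57e-06), and 20.4% of its exonic length is shared with Hoxaas3. With scaling by total counts alone its difference was 0.16 and no longer passed.

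The 2 most abundant Hox RNAs of the cord were among those that were lower in MN-TRAP. Hoxb8 was at 8189, 11580 and 16240 normalized counts in SC and at 1333, 2888 and 8411 in MN-TRAP. The highest MN-TRAP value was that of Chat bacTRAP replicate 1 at 14 weeks, 1 of the 3 libraries with most oligodendrocyte markers, and the other 24 lay below all SC libraries. The log2 difference was -1.82 (SE 0.13, adjusted p = 1.67e-18). Hoxb9, a thoracic gene, was at 2740, 3784 and 4528 in SC and at 516, 933 and 3421 in MN-TRAP, with 24 libraries below all SC libraries and a log2 difference of -1.64 (SE 0.12, adjusted p = 2.52e-18). Reads over the 102 bases of Mir196a-1, which lies between Hoxb13 and Hoxb9, were also lower, with 4.53, 9.90 and 26.4 normalized counts in SC and 0, 0 and 2.95 in MN-TRAP and a log2 difference of -4.39 (SE 0.39, adjusted p = 3.67e-14). Such reads from polyadenylated RNA do not measure the mature miRNA.

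Hoxd1, which in mice is known for pain-sensing sensory neurons, was at 68.4, 100.1 and 172 normalized counts in SC and at 0, 16.0 and 57.8 in MN-TRAP. Each MN-TRAP library lay below each SC library, as for 1.9% of all genes tested, 5 were at 0, and the log2 difference was -2.96 (SE 0.27, adjusted p = 1.45e-14). Hoxb2, a hindbrain gene, was at 68.2, 100.9 and 141 in SC and at 0, 35.0 and 117 in MN-TRAP, with 24 libraries below all SC libraries and a log2 difference of -1.57 (SE 0.22, adjusted p = 7.09e-09). Without hTDP-43 WT MN-TRAP replicate 3 at 9 weeks these differences were -3.57 for Hoxd1 and -2.22 for Hoxb2.

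The largest fitted falls belonged to genes of few counts. Hoxc12, of the caudal end, was at 2.68, 26.3 and 64.6 normalized counts in SC and at 0, 0 and 11.7 in MN-TRAP, with 13 MN-TRAP libraries at 0 and a log2 difference of -4.92 (SE 0.47, adjusted p = 2.51e-13). Hoxd4, a gene of the hindbrain and neck, was at 16.6, 37.9 and 70.9 in SC and at 0, 4.19 and 30.96 in MN-TRAP, with 10 libraries at 0 and a log2 difference of -3.74 (SE 0.42, adjusted p = 3.55e-11). Its exons are shared with other counted genes, Hoxd3 among them, over 52.3% of their length, so its counts are uncertain. Hoxa6, a gene of brachial levels, was at 2.96, 47.0 and 99.6 in SC and at 0, 3.86 and 24.9 in MN-TRAP, with 8 libraries at 0 and a log2 difference of -3.55 (SE 0.48, adjusted p = 3.71e-09). Hoxa13, of the limb tip and urogenital tract, was at 2.72, 9.34 and 26.1 in SC and at 0, 1.93 and 18.8 in MN-TRAP, with 10 libraries at 0 and a log2 difference of -1.83 (SE 0.45, adjusted p = 0.00032). With limma-voom and quality weights Hoxa13 was at -0.84 and did not pass. The fitted size of such values depends on the tool, and with limma-voom the other 3 were -3.08, -2.77 and -2.62.

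The other 13 genes that were lower had log2 differences from -1.50 (Hoxb3) to -0.26 (Hoxd8). They were Hoxb3, Hoxb6, Hoxb7, Hoxa2, Hoxa3, Hoxa4, Hoxa5, Hoxa9, Hoxa10, Hoxa11, Hoxc13, Hoxd3 and Hoxd8, of which Hoxa10 was at -0.38 (SE 0.10, adjusted p = 0.00042) and Hoxa11 at -1.14 (SE 0.20, adjusted p = 8.26e-07). Among those that did not pass, Hoxb4 was at 0.01, Hoxd10 at 0.06, Hoxd11 at 0.09, Hoxb13 at -0.09, Hoxb5 at -0.16, Hoxc11 at -0.20 and Hoxd13 at -0.97 (SE 0.47, adjusted p = 0.057). Hoxd13 passed without hTDP-43 WT MN-TRAP replicate 3 at 9 weeks, at -1.98, or without replicate 2 at 14 weeks, at -1.85, and in several other alternatives. Hoxc11 passed without hTDP-43 WT MN-TRAP replicate 3 at 14 weeks, which held its highest value, at -0.41 (adjusted p = 0.00596), with limma-voom at -0.42 (adjusted p = 0.0259) and with scaling by total counts at -0.52 (adjusted p = 0.00531). Without Chat bacTRAP MN-TRAP replicate 1 at 14 weeks Hoxd11 was at -0.46 (not past), and without replicate 4 Hoxb13 was at -0.49 (not past). Hoxc13 was at -1.08 (SE 0.28, adjusted p = 0.00052) and at -2.31 without that 9-week library or -2.23 without the 4 libraries under 5M counts. Hoxb4, Hoxd10 and Hoxd11 lay within 1 SE of 0 (0.13, 0.10 and 0.26), which does not show that the fractions were alike.

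Shares of the Hox counts within a library do not depend on scaling between libraries. Cluster B took 46.4 to 59.3% of Hox counts in SC (median 55.1) and 23.0 to 42.9% in MN-TRAP (median 30.1), and cluster C took 16.0 to 23.3% (median 18.3) and 26.8 to 43.7% (median 38.9). The fractions did not overlap in either cluster, and the directions were those of the median log2 differences. Cluster A took 15.3 to 18.8% (median 16.9) and 16.3 to 21.9% (median 18.5), and cluster D 8.22 to 12.8% (median 9.51) and 9.58 to 18.3% (median 13.2), with overlap in both. The median shares of clusters A and D were thus higher in MN-TRAP although the median log2 differences of their genes were below 0, while the Hox total was lower in MN-TRAP. Without the members whose exons overlap another counted gene, cluster B took 62.3% and 32.9%, cluster C 17.6% and 42.7%, cluster A 9.12% and 9.56% and cluster D 10.4% and 16.8% (medians in SC and MN-TRAP).

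**Figure D4:**
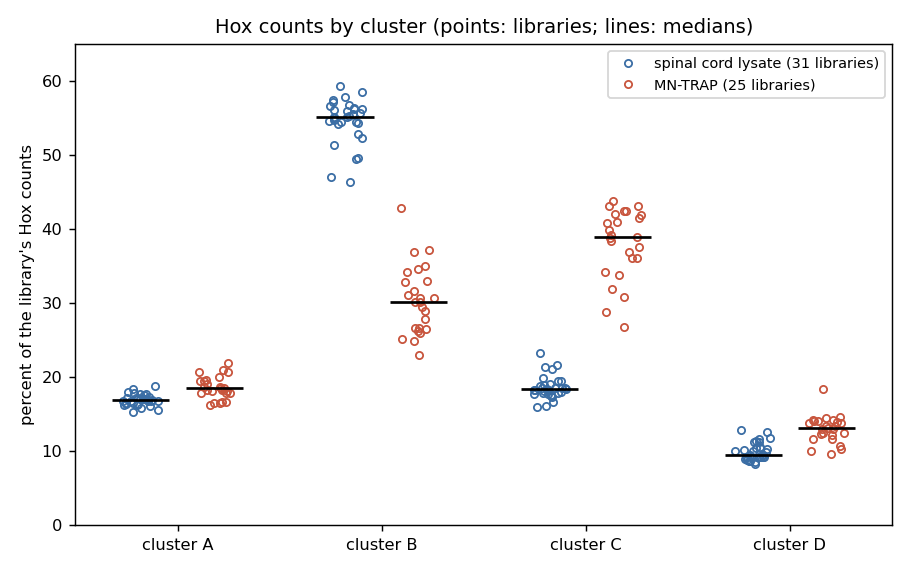
Percent of each library's Hox counts held by clusters A to D, 1 point per library, blue for 31 spinal cord and red for 25 MN-TRAP libraries, with lines at the medians. Cluster B falls from a median of 55.1% to 30.1% and cluster C rises from 18.3% to 38.9% with no overlap between the fractions.

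The summed CPM of glial and interneuron markers was lower in MN-TRAP than in SC, as given above, and moved with the lower Hox genes, and its part in the difference between fractions was not tested. Without the 2 Chat bacTRAP MN-TRAP libraries with most glial RNA all 29 Hox genes past the threshold kept their direction and passed. This fit cannot decide that part, since it leaves out MN-TRAP libraries that were nearer to SC in glial markers. It also keeps hTDP-43 WT replicate 2 at 14 weeks, the MN-TRAP library with most oligodendrocyte markers. Scaling by total counts alone moved the median of all genes from -0.17 to -0.46, and all 29 kept their direction, with 28 still past the threshold.

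Each genotype was also taken alone, with at least a 2-fold change required. In hTDP-43 A315T 3 Hox genes were higher in MN-TRAP and 13 lower (13.3% and 24.1% of all genes), in hTDP-43 WT 2 were higher and 11 lower (9.8% and 19.8%) and in Chat bacTRAP 1 was higher and 14 lower (9.25% and 22.8%). Hoxc5 was higher by a log2 of 1.30, 1.25 and 1.33 in these genotypes, and Hoxb8 was at -2.02, -1.72 and -1.71. Hoxc4, Hoxc5, Hoxc6, Hoxc8, Hoxc9, Hoxc10 and Hoxd9 had a higher mean in MN-TRAP than in SC in all 6 genotype and age groups. Lower in all 6 were Hoxa3 to Hoxa6, Hoxa10, Hoxa11, Hoxb1 to Hoxb3, Hoxb6 to Hoxb9, Hoxc12, Hoxc13, Hoxd1, Hoxd3 and Hoxd4. Hoxb9 was at -2.20, -1.35 and -1.37.

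**Figure D5:**
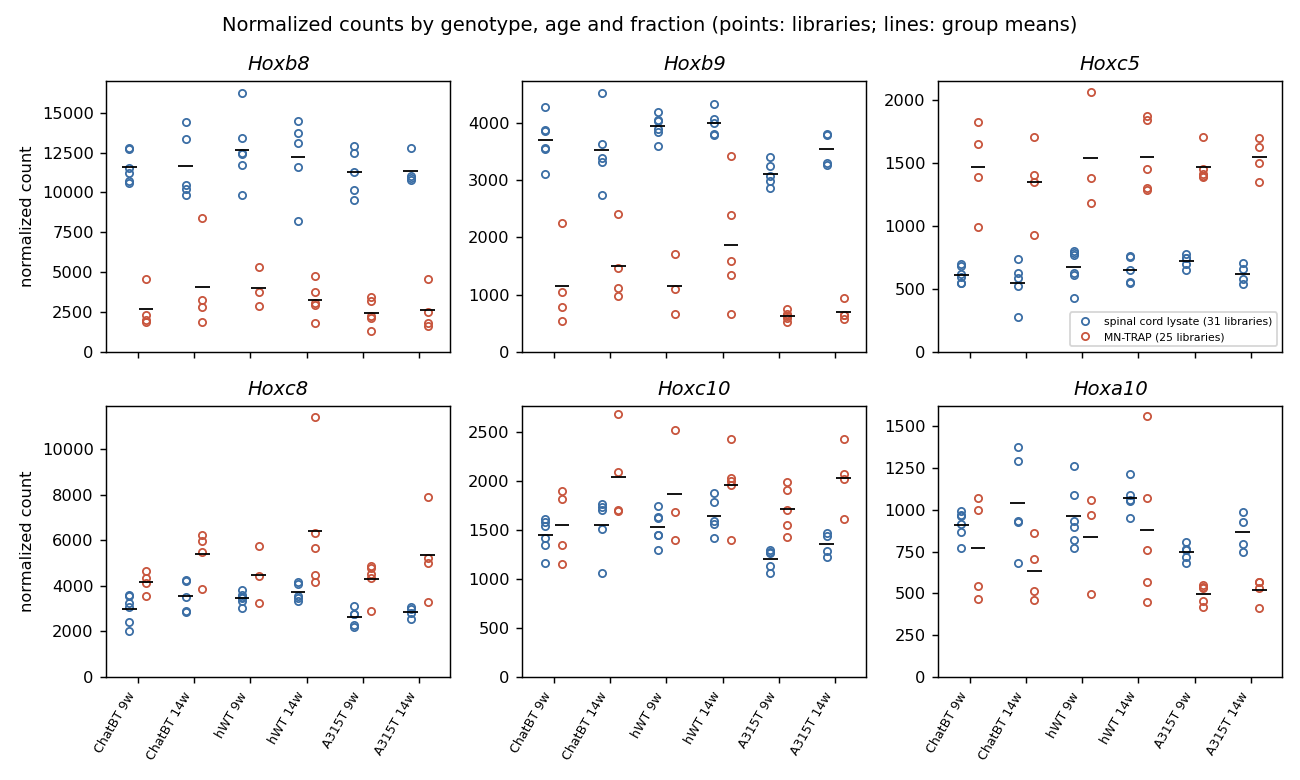
Normalized counts of Hoxb8, Hoxb9, Hoxc5, Hoxc8, Hoxc10 and Hoxa10 by genotype and age, 1 point per library and lines at the group means, blue for spinal cord and red for MN-TRAP (ChatBT, Chat bacTRAP; hWT, hTDP-43 WT; A315T, hTDP-43 A315T). Hoxb8 and Hoxb9 lie higher and Hoxc5 lower in spinal cord in all 6 groups. Hoxb9 in MN-TRAP has its lowest group means in hTDP-43 A315T, with libraries at 516 to 933. Control libraries lie within that range, at 532 and 786 in Chat bacTRAP at 9 weeks and at 664 and 656 in hTDP-43 WT at 9 and 14 weeks. Those at 532, 664 and 656 held reads of the pseudogene Lamr1-ps1.

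Whether the fraction difference itself differed between genotypes was tested as an interaction. No Hox gene was called between hTDP-43 A315T and Chat bacTRAP, between hTDP-43 A315T and hTDP-43 WT or between hTDP-43 WT and Chat bacTRAP by edgeR, where 0.664%, 0.626% and 0.403% of all genes were. At an unadjusted p below 0.05 there were 6, 2 and 4 Hox genes (16.2%, 5.41% and 10.8% of those tested) against 14.7%, 11.9% and 10.4% of all genes. For Hoxb9 the interaction with Chat bacTRAP as the control was -0.83 (SE 0.27, adjusted p = 0.113), and with hTDP-43 WT it was -0.85 (SE 0.28, adjusted p = 0.13). Without the 4 libraries under 5M counts it was -1.003 against Chat bacTRAP (adjusted p = 0.0242, where 3.91% of all interaction tests were called against 0.564%). Hoxc13, Hoxd1, Hoxb13 and Hoxb3 were then called as well, at 4.48, 3.50, 2.00 and 1.65. Chat bacTRAP MN-TRAP at 14 weeks was then left with replicates 1 and 3. These held 0 and 0 raw counts of Hoxc13 and of Hoxd1, 3 and 1 of Hoxb13 and 0 and 8 of Hoxb3. The 4 sizes thus rest in part on a group at or near 0. Without 3 control libraries with reads of the pseudogene Lamr1-ps1 the Hoxb9 interaction was -1.12 against hTDP-43 WT (adjusted p = 0.00156). Hoxc13 and Hoxb2 were then called too, at 4.41 and 2.54. In that fit hTDP-43 WT MN-TRAP at 9 weeks was left with replicates 1 and 2. These held 0 and 0 raw counts of Hoxc13 and 1 and 0 of Hoxb2. The 3 control libraries left out held Hoxb9 at 656, 664 and 532 normalized counts, within the range of hTDP-43 A315T MN-TRAP. They held Lamr1-ps1 at 1.69, 1.11 and 1.34 CPM, while 13 of the 25 MN-TRAP libraries held none. The source of these reads was not tested.

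Genotypes were then compared within each fraction and age, and these comparisons share groups. They also share 1 estimate of spread per gene over both fractions, so p-values can be too small in MN-TRAP and too large in SC. In MN-TRAP at 14 weeks 4 Hox genes were called between hTDP-43 A315T and Chat bacTRAP (10.4% of all genes), 3 between hTDP-43 A315T and hTDP-43 WT (5.36%) and 4 between hTDP-43 WT and Chat bacTRAP (13.2%). These counts of 37 are 10.8%, 8.11% and 10.8%, near the shares of all genes. At 9 weeks none was called by edgeR in MN-TRAP, where 0.541%, 2.14% and 0.223% of all genes were, with 7, 5 and 2 Hox genes at an unadjusted p below 0.05 (18.9%, 13.5% and 5.41%, against 12%, 15.6% and 13.4% of all genes). In SC none was called in the 6 comparisons, where 0.0372%, 0.0212% and 0% of all genes were at 9 weeks and 0.0212%, 0.0265% and 0.00531% at 14 weeks, with 0, 5 and 0 Hox genes at an unadjusted p below 0.05 at 9 weeks (2.01%, 4.63% and 0.196% of all genes) and 0 in each at 14 weeks (3.77%, 2.16% and 1.8%). When libraries of MN-TRAP alone were fitted, none of these Hox genes was called, and neither was nearly any other gene (0.00101% of all tests in these 6 comparisons), with Hoxb9 still at -1.06 from Chat bacTRAP and -1.39 from hTDP-43 WT. With limma-voom 7 calls were made in SC, of Hoxa6, Hoxb13 and Hoxc12 and all higher in hTDP-43 A315T, by log2 values from 1.02 (Hoxc12) to 1.81 (Hoxb13). By that tool and the same rule 1, 2, 3 and 1 Hox genes of 37 were called between hTDP-43 A315T and Chat bacTRAP and hTDP-43 WT at 9 weeks and the same at 14 weeks, where 1.2%, 2.59%, 3.1% and 2.3% of all genes were.

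Hoxb9 was the member called against both controls. In hTDP-43 A315T MN-TRAP at 14 weeks it was at 643, 933, 651 and 572 normalized counts, in Chat bacTRAP at 2411, 1470, 1123 and 972, and in hTDP-43 WT at 1335, 2381, 3421, 1578 and 656. All hTDP-43 A315T libraries lay below all Chat bacTRAP libraries and overlapped hTDP-43 WT through 1 library at 656, which held Lamr1-ps1 reads. Relative to Chat bacTRAP it fell by 1.01 on the log2 scale (SE 0.29, adjusted p = 0.0177), and relative to hTDP-43 WT it fell by 1.41 (SE 0.28, adjusted p = 0.00287). Without Chat bacTRAP replicate 1 the first was -0.62 (adjusted p = 0.189), and without hTDP-43 A315T replicate 4 it was -0.93 (adjusted p = 0.0531). At 9 weeks the 5 hTDP-43 A315T libraries lay between 516 and 743. They overlapped Chat bacTRAP at 532 to 2257 and hTDP-43 WT at 664 to 1711, through the libraries at 532 and 664. Both of these control libraries held Lamr1-ps1 reads. The log2 differences were -0.84 from Chat bacTRAP (SE 0.27, adjusted p = 0.149) and -0.82 from hTDP-43 WT (SE 0.31, adjusted p = 0.159).

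The markers of other cells moved with Hoxb9. At 14 weeks the summed CPM of the 10 oligodendrocyte markers was 1842 to 2245 in hTDP-43 A315T MN-TRAP, 3102 to 19020 in Chat bacTRAP and 2051 to 21460 in hTDP-43 WT. That of the 10 interneuron markers was 200.3 to 252, 304 to 682 and 233 to 748. Without the 2 Chat bacTRAP MN-TRAP libraries with most glial RNA the Hoxb9 difference from Chat bacTRAP was -0.62 and did not pass (adjusted p = 0.115). Of these 2 only replicate 1 at 14 weeks is in this comparison, so the fit largely repeats the one without replicate 1 above. The difference from hTDP-43 WT passed without the hTDP-43 WT library with most oligodendrocyte markers. Whether RNA of other cells accounts for the Hoxb9 differences was not tested. In SC Hoxb9 differed by 0.04 (SE 0.27, adjusted p = 1) and -0.19 (SE 0.27, adjusted p = 1) at 14 weeks from Chat bacTRAP and hTDP-43 WT.

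Hoxd4 and Hoxd1, both of the low end of cluster D, were called between each TDP-43 line and Chat bacTRAP on few counts. Hoxd4 was at 0, 0, 6.87 and 30.96 normalized counts in hTDP-43 A315T, at 0, 15.8, 2.76, 8.47 and 7.85 in hTDP-43 WT and at 0 in all 4 Chat bacTRAP libraries. Against a floor of 3 counts over the Chat bacTRAP group, its pooled counts were at least 4.67-fold higher in hTDP-43 A315T (26 counts against 0, adjusted p = 0.0137). In hTDP-43 WT they were at least 4.75-fold higher (adjusted p = 0.013). Of the pooled counts 23 of 26 came from hTDP-43 A315T replicate 4, and 72 of 89 from hTDP-43 WT replicate 5. The latter library held Lamr1-ps1 reads. Such pooled folds do not measure the spread between libraries. The groups overlapped through libraries at 0, and without hTDP-43 A315T replicate 4 or Chat bacTRAP replicate 1 the first call was lost (adjusted p = 0.226 and 0.0752). The second was lost without Chat bacTRAP replicate 1 (adjusted p = 0.057) or replicate 3 (adjusted p = 0.0539).

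Hoxd1 was at 6.64, 52.0, 16.0 and 2.69 normalized counts in hTDP-43 A315T, at 35.5, 23.8, 5.52, 28.2 and 10.6 in hTDP-43 WT and at 0, 0, 0 and 5.82 in Chat bacTRAP. The single Chat bacTRAP count came from the library with Y-linked reads. The ratio of pooled counts per total was 32.3 (95% counting interval 5.59 to 1300.0, 60 counts against 1) for hTDP-43 A315T and 26.0 (4.59 to 1030) for hTDP-43 WT, with adjusted p = 0.00237 and 0.000915. Both calls held without each library in turn and were lost with limma-voom, at 1.53 and 2.48 on the log2 scale.

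Of the other calls, Hoxb13 in hTDP-43 A315T was at 53.9, 84.2, 20.6 and 55.2 normalized counts and in Chat bacTRAP at 3.29, 0, 1.501 and 58.2, where the last value was that of the library with Y-linked reads. The log2 difference was 2.21 (SE 0.78, adjusted p = 0.0484), the groups overlapped, and the call was lost without any 1 of 6 of the 8 libraries, at 1.63 to 2.21. Without the Chat bacTRAP library with Y-linked reads, through which the groups overlapped, it was 4.57 (adjusted p = 0.000277). Hoxa2, a hindbrain and neural crest gene, was at 38.4, 3.71, 103 and 35.0 in hTDP-43 A315T, at 93.8, 90.3, 414, 121 and 77.6 in hTDP-43 WT and at 104, 0, 0 and 75.7 in Chat bacTRAP. Its log2 difference was -1.84 (SE 0.59, adjusted p = 0.0438) between the first 2 and 1.72 (SE 0.61, adjusted p = 0.0357) between hTDP-43 WT and Chat bacTRAP, and without hTDP-43 WT replicate 3 these were -1.16 and 1.03 and were lost (adjusted p = 0.259 and 0.222). They were lost as well without hTDP-43 A315T replicate 1, 2 or 4, at -1.79, -1.44 and -1.75, and without Chat bacTRAP replicate 2 or 3, at 1.46 and 1.22.

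Hoxa9, the cluster A paralog of Hoxc9, was in hTDP-43 A315T at 1001, 878, 896 and 736 normalized counts and in hTDP-43 WT at 1120, 1827, 4410, 1259 and 965. The groups overlapped through the hTDP-43 WT library at 965, replicate 5, which held Lamr1-ps1 reads. The log2 difference was -1.11 (SE 0.27, adjusted p = 0.00928), and without hTDP-43 WT replicate 3, at 4410, it was -0.57 (adjusted p = 0.165). Hoxa13 was at 0, 3.17, 0, 14.1 and 4.03 in hTDP-43 WT and at 0 in all 4 Chat bacTRAP libraries. Its pooled counts were at least 2.62-fold higher against the floor of 3 counts over the group (adjusted p = 0.0309). Of these, 37 of 49 came from hTDP-43 WT replicate 5, the same library with Lamr1-ps1 reads. The call was lost without hTDP-43 WT replicate 4 (adjusted p = 0.0728) or Chat bacTRAP replicate 1 (adjusted p = 0.103) or 3 (adjusted p = 0.0995). Only Hoxb9 against hTDP-43 WT and the 2 calls of Hoxd1 were past the threshold without each library of MN-TRAP at 14 weeks in turn.

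Between 14 and 9 weeks 4 Hox genes were called, each in Chat bacTRAP MN-TRAP (5.15% of all genes) and each lower at 14 weeks. None was called by edgeR in MN-TRAP of hTDP-43 A315T (0.0106% of all genes) or hTDP-43 WT (7.03%), or in SC of the 3 genotypes (0%, 0% and 0%). At an unadjusted p below 0.05 there were 1 and 10 Hox genes in MN-TRAP of these 2 lines (2.7% and 27%, against 6.89% and 29.6% of all genes), and 0 in SC, where 0.234%, 1.52% and 0.993% of all genes were below it in hTDP-43 A315T, hTDP-43 WT and Chat bacTRAP. Hoxd4 was at 4.19, 24.6, 12.04 and 7.58 normalized counts in the 4 Chat bacTRAP MN-TRAP libraries at 9 weeks and at 0 in the 4 at 14 weeks. Its pooled counts were at least 6.42-fold lower against the floor of 3 counts over the group (adjusted p = 0.0129). For Hoxa13 the normalized counts were 8.39, 18.8, 0 and 4.52 against 0 in all 4, with pooled counts at least 4.4-fold lower (adjusted p = 0.023). Hoxd1 was at 35.6, 57.8, 0 and 24.4 against 0, 0, 0 and 5.82, a ratio of pooled counts of 0.0175 (95% counting interval 0.00044 to 0.0984, adjusted p = 0.00078). Hoxb3, a hindbrain gene, was at 65.003, 59.96, 72.2 and 68.1 against 0, 0, 12.01 and 87.3, with a log2 difference of -1.82 (SE 0.58, adjusted p = 0.0482).

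Of these age groups Hoxd4 alone did not overlap. Both groups differed in depth, with pooled totals of 245299038 counts at 9 weeks and 53055730 at 14 weeks. Replicate 4 alone held 192686637 of the 9-week counts, so it weighs most in the pooled folds and ratio. Leaving out Chat bacTRAP MN-TRAP replicate 1 or 3 at 14 weeks ended the calls of Hoxd4 (adjusted p = 0.053 and 0.0542) and Hoxa13 (adjusted p = 0.0766 and 0.0792), and leaving out replicate 2 at 9 weeks ended that of Hoxa13 (adjusted p = 0.0503). Leaving out any 1 of 6 of the 8 libraries ended that of Hoxb3, at -1.85 to -1.14, while without the library with Y-linked reads, replicate 4 at 14 weeks, it was at -3.80 (adjusted p = 1.3e-05). The Hoxd1 call held in each case. Whether the age difference differed between genotypes was not tested.

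Other genes around Hox function were taken from lists and compared between MN-TRAP and SC in the same fit, where 31.6% of all genes were higher and 43.8% lower, with a median log2 difference of -0.17. Of 9 Hox cofactors, which bind DNA with Hox proteins, 5 were higher and 3 lower (median log2 0.20), with Pknox1 at -0.99, Pbx3 at 0.37 and Meis2 at -0.38. Of 12 chromatin regulators that keep Hox genes on or off, none was higher and 8 were lower (median -0.77), among them the demethylase gene Kdm6a at -1.78, the methyltransferase genes Kmt2d at -1.39 and Ezh2 at -2.16, and Kdm6b at -0.98. Of 7 tested inducers of the retinoic acid and growth factor pathways, 2 were higher and 4 lower (median -0.43), with Cyp26b1, which breaks down retinoic acid, at 1.65, the receptors Rara at 1.19 and Rarg at -0.87, and Cyp26a1 at -2.92.

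Of 10 tested noncoding genes within the clusters, 1 was higher and 6 lower (median -0.64), with Hoxd3os1 at 0.98, Haglr at -1.15, Hoxaas2 at -1.17 and Mir196a-1 at -4.39. Counting was not stated to use strand, so antisense genes and the Hox genes they overlap cannot be told apart. Of 16 genes of motor columns and pools, which act downstream of or beside Hox genes, 9 were higher and 7 lower (median 0.41), led by Mnx1 at 3.74, Isl1 at 3.50, Isl2 at 3.20 and Lhx4 at 1.91. Foxp1, the Hox partner that sets limb-level columns, was at -0.19.

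Markers of more anterior levels bear on the segments in the lysate as well. Of 6 genes of cranial motor neurons, 4 were higher in MN-TRAP and 1 lower (median 1.57), with Rgs4 at 2.13, Tbx20 at 3.09 and Tbx2 at 1.00 on the log2 scale. Of 5 tested genes of hindbrain and forebrain identity, 1 was higher and 4 lower (median -2.02), with En2 at -2.19, Pax6 at -2.01 and Egr2 at -2.93. Six3, a gene of the forebrain and eye, was at 0 in 26 of 31 SC and 23 of 25 MN-TRAP libraries. Libraries of the cord thus held RNA of paralogs 4 to 10 throughout, and RNA of Six3 in few.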

How the data were processed

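Raw counts, deposited by the authors as whole numbers of reads per Ensembl gene, had been made with STAR and featureCounts on mm10, and the study names DESeq2 for its tests. The signal values, also deposited by the authors, are each count over the size factor of its library and are printed here as normalized counts. Counting was unstranded as far as stated, and reads shared between overlapping genes were not assigned. Groups were read from the sample titles. Counts were tested with edgeR 4.0.16 in R 4.3.3 (filterByExpr by group, 18838 of 43629 genes kept, TMM, robust glmQLFit, glmQLFTest) in 1 model of 12 groups and 56 libraries, with Benjamini-Hochberg adjustment over all genes tested. The fractions thus shared 1 estimate of spread per gene, although MN-TRAP libraries could vary more. For Hoxb9 the mean and standard deviation were 3648 and 449 normalized counts in SC and 1175 and 748 in MN-TRAP. Genotype and age p-values can therefore be too small in MN-TRAP and too large in SC. With each fraction fitted alone, genotype calls over all genes went from 5.31% to 0.00101% of tests in MN-TRAP and from 0.0186% to 0.131% in SC. A gene was called at an adjusted p below 0.05 and at least 2-fold. Exon lengths, overlaps and positions came from GENCODE (GRCm38), and a base of exon counted once per gene. Permutation tests were two-sided with 100000 permutations (SciPy 1.17.1), and intervals of shares are exact Clopper-Pearson. The edgeR script was tested on simulated counts. limma 3.58.1 (voom) and DESeq2 1.42.0 were alternatives, with others given in the closing section.

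The rule for members and the gene lists were chosen with earlier results of these data known, although the rule itself reads symbols and no values. Values are given for the 8 largest rises and 8 largest falls past the threshold between MN-TRAP and SC, for each member called in a genotype or age comparison, and for paralogs 10 to 13 past the filter, with up to 4 genes of smallest p from each list. Of the 39 members 16 have exons that overlap another counted gene, 7 of them over more than 20% of their exonic length. Hoxd4 shares 11.3% of its 50-base words with Hoxd3. A few genes of the lists are not reported here, although counts and medians over the lists include them.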

Additional observations from a re-analysis of the deposited data

Results flagged for a closer look

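In groups of 4 to 10 libraries 1 library was marked where its gap to the nearest other library was large against the range of its group (Dixon's criterion at 95%), which chance does in about 1 in 20 groups. Of 144 groups looked at, 11 were marked, and each is given as a value without an explanation. The Hox total of Chat bacTRAP MN-TRAP replicate 2 at 9 weeks was 1276 CPM, against 941 to 976 in the other 3 libraries. Cluster C took 31.9% of Hox counts in hTDP-43 A315T MN-TRAP replicate 3 at 9 weeks, against 40.9 to 42.4%, and 23.3% in hTDP-43 WT SC replicate 5 at 14 weeks, against 17.9 to 19.4%. In hTDP-43 A315T MN-TRAP replicate 1 at 14 weeks cluster D took 9.58%, against 13.3 to 13.9%, and the paralog 9 genes 10.4%, against 13.3 to 13.8%.

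Among single genes in hTDP-43 WT MN-TRAP at 14 weeks, Hoxa13 was at 14.1 normalized counts in replicate 4 (others 0 to 4.03), and Hoxa2 at 414 (77.6 to 121) and Hoxa9 at 4410 (965 to 1827) in replicate 3. In Chat bacTRAP MN-TRAP at 14 weeks replicate 4, the library with Y-linked reads, held Hoxb13 at 58.2 (0 to 3.29), Hoxb3 at 87.3 (0 to 12.01) and Hoxd1 at 5.82, with the other 3 libraries at 0.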

How the results depend on the processing

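Between MN-TRAP and SC all 29 Hox genes past the threshold kept their direction in each of the alternatives run (DESeq2, median-ratio normalization, no filter, limma-voom, replicate number as a block, left-out libraries, scaling by total counts), and no result reversed. Called genes at 2-fold numbered 15, and 14 to 16 without each library in turn, while an adjusted p alone gave 29. Summed over the genotypes they were 44 (42 to 46), and 74 by adjusted p alone. Beside each count below, the percent of tests over all genes that were called is given in brackets. The interaction gave 0 calls (0.564%), but 7 without the 4 libraries under 5M counts (3.91%), 3 without 3 controls with Lamr1-ps1 reads (5.21%), 4 without the library with Y-linked reads (2.52%) and 0 to 4 without each library. In MN-TRAP the genotypes gave 11 calls (5.31%), but 1 with limma-voom (0.134%), 7 with the replicate number as a block (3.98%), 0 with the same fraction alone (0.00101%), 20 without libraries under 5M counts (8.99%), 24 without Lamr1-ps1 libraries (10.8%), 18 without the library with Y-linked reads (7.55%), 7 with total counts (4.66%) and 7 to 19 without each library. In SC they gave 0 calls (0.0186%), 7 with limma-voom (1.73%) and 0 without each library. Age gave 4 calls (2.03%), but 0 with limma-voom (0.054%) or the same fraction alone (0%), 10 without libraries under 5M counts (4.41%), 7 without Lamr1-ps1 libraries (3.88%), 2 without the 2 Chat bacTRAP libraries with most glial RNA (2.04%) and 2 to 8 without each library. For these counts of calls the cause was not tested. The median share of paralogs 10 and 11 over 56 libraries was 8.68%, and 3.32% without members that overlap another gene, which leaves only Hoxa10 and Hoxc11 of these paralogs.

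Same-numbered MN-TRAP and SC libraries did not deviate together (25 pairs, r from -0.341 to 0.276, 9 over 0.1, 6 of 25 closest to their own number), so the numbers were not taken as pairs. With the replicate block as a term the 6 counts were 15, 44, 0, 7, 0 and 4, and with the number within genotype and age as the block the first 3 were 18, 39 and 0. Where a library was left out, comparisons that do not hold its group kept their calls from the fit of all libraries. Depth limits the genes of few counts, Hoxd4, Hoxd1, Hoxa6, Hoxa13, Hoxc12 and Hoxd13, in MN-TRAP libraries under 5M counts.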
